A study of Mus musculus with 3 samples.

Results

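The tumour necrosis factor (TNF) superfamily, its receptors and the proteins that carry their signal were examined in mouse myeloid leukaemia cells that had become resistant to cytarabine (Ara-C), a deoxycytidine analogue used against myeloid leukaemia. The genes were taken by name: every probe whose platform symbol began with Tnfsf or Tnfrsf or with Traf and a number, together with Tnf, Lta, Ltb, Ltbr, Fas, Fasl, Cd27, Cd40, Cd40lg, Cd70, Tradd, Fadd and Ripk1. This gave 52 of 17742 measured genes, on 62 of 20377 named probes, and where a gene had several probes, the one with the highest mean intensity was used. The 52 genes comprised 16 ligands, 23 receptors, the 3 adaptors Tradd, Fadd and Ripk1, 7 TNF receptor-associated factors (TRAFs) and 3 TRAF3-interacting proteins, which share the prefix but are not TRAFs.

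The resistant group was 1 array of B117HS, derived from B117P by repeated exposure to rising cytarabine concentrations, and the sensitive group was 2 arrays of the parental line B117P. Both lines carry the BXH-2 strain label, a recombinant inbred mouse strain known for retrovirally induced myeloid leukaemia, with bone marrow given as the tissue, and both were grown in the same medium. No label describes a separate culture behind each sensitive array or a drug treatment at harvest, B117HS is a single derived line, and p-values therefore cover the spread among the arrays alone, which may be technical.

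Ligands of this family are mostly trimers, anchored in the membrane or shed from it, that cluster their receptors. Receptors with a cytoplasmic death domain, such as TNFR1 and Fas, recruit TRADD, FADD and RIPK1 and can lead to NF-kB activation, caspase activation or, through RIPK3 and MLKL, to necroptosis. Receptors without one recruit TRAF proteins directly and signal mainly through canonical and non-canonical NF-kB, and decoy receptors bind ligand without passing on a death signal. In myeloid cells the family is known for inflammatory signalling and for control of survival.

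A gene was called when limma's adjusted p (Benjamini-Hochberg over all 17742 genes) was under 0.05 and its level, log2(intensity + 50), lay at least 1 above, or at least 1 below, both sensitive arrays. The resistant array was dimmer as deposited, by a median of -0.76 on the log2 scale over 6184 probes averaging at least 500 units. All log2 differences below are resistant minus sensitive on the deposited scale unless the text says that they follow scaling of each array on those bright probes, and "rose" and "fell" are used only of genes called on both scales.

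Receptors made up most of the rises, and the falls were spread over ligands, receptors, an adaptor and a TRAF3-interacting gene. On both scales 7 of the 52 genes rose, namely the ligand gene Tnfsf14 and the receptor genes Tnfrsf26, Tnfrsf23, Tnfrsf12a, Tnfrsf21, Fas and Tnfrsf14. On both scales 6 fell, namely Ltb, Tnfrsf4, Cd27, Tnfrsf11a, Tradd and Traf3ip2. Higher calls were thus 13.5% of the family against 5.21% of all genes on both scales, and lower calls 11.5% against 8.43%. Calls were more frequent among the 16 members that reached 500 units on any array, of which 31.2% rose and 25% fell. Among the 36 dimmer members 5.56% rose and 5.56% fell. A large difference can itself carry a gene past 500, as in Tnfsf14 (2083 in resistant cells, against 88.2 and 107 in sensitive cells). The part of brightness in the calls was not tested. As deposited 7 were called higher and 12 lower, where the background over all genes was 5.23% higher and 18.5% lower. After scaling 8 were called higher and 6 lower, against 9.83% and 8.53% of all genes. The median difference was -0.29 over the family and -0.33 over all genes as deposited, and -0.005 over the family and -0.06 over all genes after scaling. The resistant array read above both sensitive arrays for 13 members and below both for 33, where 20.8% and 68.4% of all genes did so, and it lay between them for 6.

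The cells read as myeloid on all arrays. Of 10 genes of myeloid progenitors and granulocytes, 8 reached 500 units on the resistant array and 7 on both sensitive arrays. Within that list Elane (4.96) and Ctsg (1.14) rose, while Ms4a3 (-2.81), Cd34 (-2.39) and Spi1 (-2.06) fell, all as log2 differences. After quantile normalization Ctsg (1.08) and Ms4a3 (-2.25) were not called. Spi1, which encodes the myeloid factor PU.1, read 109 in resistant cells, against 634 and 591 in sensitive cells. Of 6 monocyte and macrophage genes, 1 reached that level on the resistant array and 5 on both sensitive arrays, with a summed intensity of 9743 against 13823 and 17526. Cd14 made up most of the resistant sum, at 9072 against 4556 and 7712, and was not called (0.61). Without Cd14 the list summed to 670.4 in resistant cells, against 9267 and 9814 in sensitive cells, with Csf1r (-5.14), Cx3cr1 (-4.89) and Irf8 (-5.10) falling. Several members below fell as well, which with 1 resistant array cannot show that they vary together with these genes. None of 6 T cell genes and none of 3 NK cell genes reached 500 on any array, and summed T cell intensity was 123 against 393 and 364. Cd3e made up most of that sum, at 90.2 in resistant cells against 272 and 223 in sensitive cells, and was not called (-1.08). Cd8b1, at 7.78 against 70.8 and 77.8, was called lower as deposited only (-1.105). Cd3d read -3.11 in resistant cells and 3.73 and 5.28 in sensitive cells. Of 5 B cell genes, Cd79b (-3.88) and Cd22 (-2.45) passed 500 in sensitive cells and fell, and the list summed to 283 against 2254 and 2318. Cd79a (-1.15) was called lower as deposited only, and Ms4a1 (0.07) and Pax5 (-0.38) were not called. Of 5 stroma and endothelium genes, summing to 1171 against 278 and 332, Kdr rose by 2.37 (1165 in resistant cells, against 171 and 200.5 in sensitive cells), and the others stayed under 500. The part of these lists in the results was not tested, and in such bulk RNA fewer cells of a type and less RNA per cell cannot be told apart. Over the family the second sensitive array was higher than the first by a median of 0.25 on the log2 scale, against 0.08 over all genes.

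Promoter sequences are shown for the pair of genes with the largest rises and the pair with the largest falls among those called on both scales that RefSeq's table for GRCm38.p6 lists, which holds 10 of the 13. Each is the 250 bases before the start site, 5′ to 3′ on the gene's strand, with capitals at matches to a search on both strands. The searches were for the kappaB consensus, the motif bound by NF-kB dimers, and for GAGGAA, the core of the box bound by PU.1, a myeloid transcription factor encoded by Spi1.
Tnfsf14, chr17:57194182-57194431, minus strand: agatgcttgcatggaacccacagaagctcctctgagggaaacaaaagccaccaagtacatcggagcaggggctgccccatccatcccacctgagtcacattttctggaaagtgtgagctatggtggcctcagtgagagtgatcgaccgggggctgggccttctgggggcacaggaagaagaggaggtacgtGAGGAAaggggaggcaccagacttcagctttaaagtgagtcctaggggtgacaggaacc
Tnfrsf23, chr7:143685876-143686125, minus strand: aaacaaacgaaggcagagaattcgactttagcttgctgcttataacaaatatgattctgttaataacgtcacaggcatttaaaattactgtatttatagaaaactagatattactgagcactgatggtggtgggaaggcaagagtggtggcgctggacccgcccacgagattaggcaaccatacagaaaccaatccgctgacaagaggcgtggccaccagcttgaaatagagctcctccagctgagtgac
Ltb, chr17:35194257-35194506, plus strand: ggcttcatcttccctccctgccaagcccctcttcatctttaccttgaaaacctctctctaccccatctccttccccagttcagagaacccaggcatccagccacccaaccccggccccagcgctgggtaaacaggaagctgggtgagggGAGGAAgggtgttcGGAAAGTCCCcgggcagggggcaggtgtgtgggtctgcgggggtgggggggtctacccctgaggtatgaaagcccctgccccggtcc
Tnfrsf4, chr4:156013445-156013694, plus strand: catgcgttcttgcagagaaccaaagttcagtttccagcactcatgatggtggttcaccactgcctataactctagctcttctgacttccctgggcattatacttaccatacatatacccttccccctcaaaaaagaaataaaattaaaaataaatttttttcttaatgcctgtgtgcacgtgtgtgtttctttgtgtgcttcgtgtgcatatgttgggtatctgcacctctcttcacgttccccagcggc

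In Ltb the 6-base match lies at positions -101 to -96 from the start site and the kappaB match, on the other strand, at -87 to -78, so they do not overlap. Tnfsf14 holds the 6-base match at -59 to -54 and neither motif was found in the windows of Tnfrsf23 and Tnfrsf4. Of the 46 promoter windows of 41 family genes in the table, 5 held the kappaB consensus (Ltb, Tnfrsf25, Tnfrsf8, Tnfrsf9 and Traf3), where 7.25% of all 32851 windows did. The GAGGAA match was in 17 of the 46, against 23.3% of all windows. Among these 5 kappaB genes, Ltb was the one called on both scales.

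Among the ligands, Tnfsf14 rose and Ltb fell, and the other 14 passed on both scales in neither direction. Tnfsf14, which encodes LIGHT, a ligand of HVEM and of the lymphotoxin beta receptor, read 2083 in resistant cells, against 88.2 and 107 in sensitive cells. Its log2 difference was 3.86 (SE 0.27, limma adjusted p = 5.06e-07), the largest of the family under the deposited scale, and it was 4.61 after scaling. Ltb, the membrane-anchoring subunit of the lymphotoxin heterotrimer, read 327 in resistant cells, against 3195 and 4102 in sensitive cells. Its difference was -3.28 (SE 0.22, limma adjusted p = 4.26e-07), and -2.60 after scaling. In both genes the resistant array lay far outside the gap between the sensitive arrays, in opposite directions.

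Further ligands were lower as deposited but were not called after scaling. Tnfsf10, which encodes the death ligand TRAIL, read 21.8 in resistant cells and 98.2 and 148 in sensitive cells, a difference of -1.25 as deposited and -0.98 after scaling. Tnfsf8, the CD30 ligand gene, read 14 units in resistant cells against 111 and 232 in sensitive cells (-1.73, and -1.53 after scaling with an adjusted p = 0.065). Tnfsf15, the gene of the death receptor 3 ligand TL1A, read 15.6 against 86 and 121 (-1.22, and -0.996 after scaling), and its other probe read 6.22 against 77 and 95.

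Tnf itself passed on neither scale. It read 99.6 in resistant cells and 147 and 292 in sensitive cells, a difference of -0.79 (SE 0.35, limma adjusted p = 0.083) and -0.24 after scaling. The resistant value lay below both sensitive values, but the sensitive arrays differed from each other by 0.80 on the same log2 scale. Lta, the soluble lymphotoxin gene, read 10.9 against 53.4 and 86 (-0.96), Tnfsf9, the 4-1BB ligand gene, 128 against 283 and 388 (-1.10), and Tnfsf12, which encodes TWEAK, 54.4 against 154 and 195 (-1.10). None of these 3 was called, and after scaling they differed by -0.79, -0.52 and -0.65. Tnfsf13b, the gene of the B cell survival factor BAFF, read 103 against 114 and 175 and Tnfsf11, the RANK ligand gene, 45.1 against 57.1 and 42.2, so that resistant and sensitive values were close. The other 5 ligand genes, Fasl, Cd40lg, Cd70, Tnfsf4 and Tnfsf18, stayed below 50 units on all arrays.

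**Figure D1:**
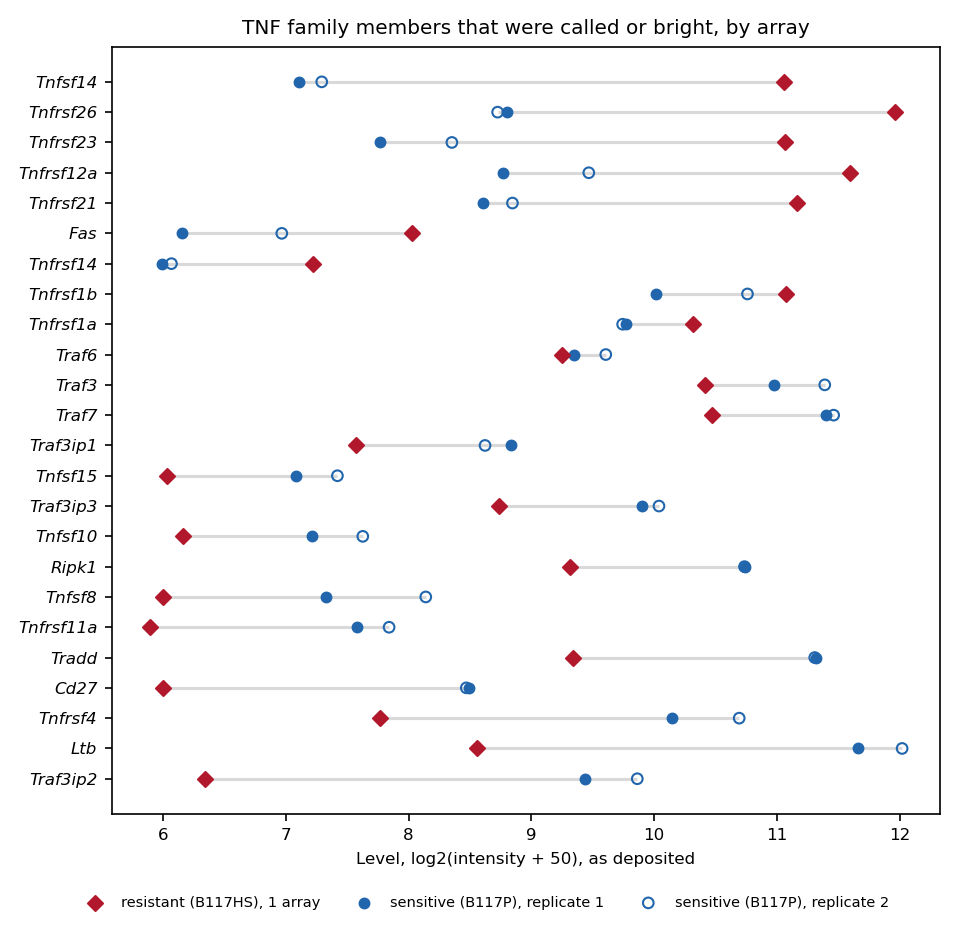
Levels of the 24 family genes that were called on either scale or reached 500 units, on the log2(intensity + 50) scale as deposited, ordered by log2 difference. The red diamond is the 1 resistant array and the blue circles are the 2 sensitive arrays, joined by a grey line. Resistant cells lie to the right of both sensitive arrays from Tnfsf14 to Tnfrsf1a and to the left of both from Traf6 to Traf3ip2.

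Of 23 receptor genes, 6 rose, or 26.1%, and 3 fell, or 13%, where 5.21% of all genes rose and 8.43% fell. The largest rises were of neighbours on chromosome 7. Tnfrsf26, a mouse receptor of this family without a known ligand, read 3945 in resistant cells, against 396 and 373 in sensitive cells, a difference of 3.20 (SE 0.22, limma adjusted p = 4.95e-07). Tnfrsf23, which encodes a mouse decoy receptor for TRAIL without a death domain, read 2098 in resistant cells, against 168 and 277 in sensitive cells, a difference of 3.01 (SE 0.28, limma adjusted p = 5.61e-06). On the scaled values these were 3.96 and 3.76. Only Tnfrsf22, which was not among the measured genes, lies between them among protein-coding genes in the GRCm38.p6 annotation. Tnfrsf10b, the gene of the mouse TRAIL death receptor, read 43.6 in resistant cells and 37.3 and 55.4 in sensitive cells, on a dim probe, and was not called.

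Of the receptor genes with a death domain, Tnfrsf21 and Fas rose, while Tnfrsf1a (0.56), Tnfrsf10b (-0.04) and Tnfrsf25 (-0.25) were not called on both scales. Tnfrsf21, which encodes death receptor 6, read 2246 in resistant cells, against 339 and 410 in sensitive cells, a log2 rise of 2.44 (limma SE 0.24, adjusted p = 6.99e-06), and of 3.19 after scaling. Fas, the receptor of Fas ligand and a known p53 target, read 212 in resistant cells, against 21.1 and 75.2 in sensitive cells, a difference of 1.47 (SE 0.34, limma adjusted p = 0.004). The sensitive arrays themselves differed in Fas by 0.82, and the call was lost after quantile normalization (2.04, adjusted p = 0.054) and with an offset of 100 (1.10). Tnfrsf12a, which encodes Fn14, the receptor of TWEAK, read 3038 in resistant cells, against 386 and 658 in sensitive cells, a difference of 2.47 (SE 0.28, limma adjusted p = 2.38e-05). Its other probe read 142 against 22.4 and 42.2 and differed by 1.23, in the same direction. Tnfrsf14, the HVEM gene, read 99.6 in resistant cells, against 13.7 and 17.1 in sensitive cells, a difference of 1.19 on a dim probe, and with an offset of 100 it was 0.79 and not called.

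The TNF receptors were higher in resistant cells without passing as deposited. Tnfrsf1a, which encodes TNFR1 with its death domain, read 1227 in resistant cells, against 824 and 807 in sensitive cells, a difference of 0.56 (SE 0.22, limma adjusted p = 0.052). On the scaled values it was called higher, at 1.30 with an adjusted p = 0.019. Tnfrsf1b, which encodes TNFR2, read 2100 in resistant cells, against 986 and 1684 in sensitive cells, a difference of 0.68, or of 1.43 after scaling with an adjusted p = 0.056. Its other probe read 299 against 209 and 235. As deposited, both TNF receptor genes thus had their highest value on the resistant array, and Tnf had its lowest. Over all genes, 20.8% read highest and 68.4% lowest on the resistant array. In Tnfrsf1b the resistant array lay 0.31 above the second sensitive array, and the sensitive arrays differed by 0.74. After scaling Tnf differed by -0.24 and was not called.

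Tnfrsf4, Cd27 and Tnfrsf11a were the receptor genes that fell. Tnfrsf4, which encodes OX40, a receptor best known from activated T cells, read 168 in resistant cells, against 1083 and 1605 in sensitive cells, a difference of -2.65 (SE 0.27, limma adjusted p = 9.35e-06) and -2.03 after scaling. Cd27, the CD70 receptor gene, read 14 in resistant cells and 311 and 305 in sensitive cells, a difference of -2.48 (SE 0.29, limma adjusted p = 3.17e-05). Its other 2 probes differed by -0.69 and -0.46, so the size of the fall in Cd27 depends on the probe. It also depends on the offset: -3.43 with 16 and -1.84 with 100. Tnfrsf11a, which encodes RANK, the receptor that drives osteoclast formation from the monocyte lineage, read 9.33 in resistant cells, against 142 and 179 in sensitive cells (-1.82, limma adjusted p = 0.000278). That resistant value was near 0, and no spot flags were used, so it gives only a direction and not a size.

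Cd40 was 76.2 in resistant cells against 196 and 198 in sensitive cells (-0.97), just short of the size asked as deposited. After scaling the Cd40 difference was -0.46 (limma adjusted p = 0.169). Its other probe stayed between -1.32 and 3.11. Tnfrsf9, the 4-1BB gene, read 32.7 against 109 and 112 (-0.96), and Tnfrsf18, the GITR gene next to Tnfrsf4, 21.8 against 69.6 and 92.3 (-0.86). Neither was called. Ltbr, the lymphotoxin beta receptor gene, read 107 in resistant cells and 116 and 150 in sensitive cells, with a difference of -0.21 as deposited and 0.35 after scaling. The other receptor genes, Tnfrsf8, Tnfrsf11b, Tnfrsf13b, Tnfrsf13c, Tnfrsf17, Tnfrsf19 and Tnfrsf25, read below 50 units on all arrays. Together with the 5 ligand genes above, Traf2 and Traf4 they made 14 members below that level, none of them called.

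**Figure D2:**
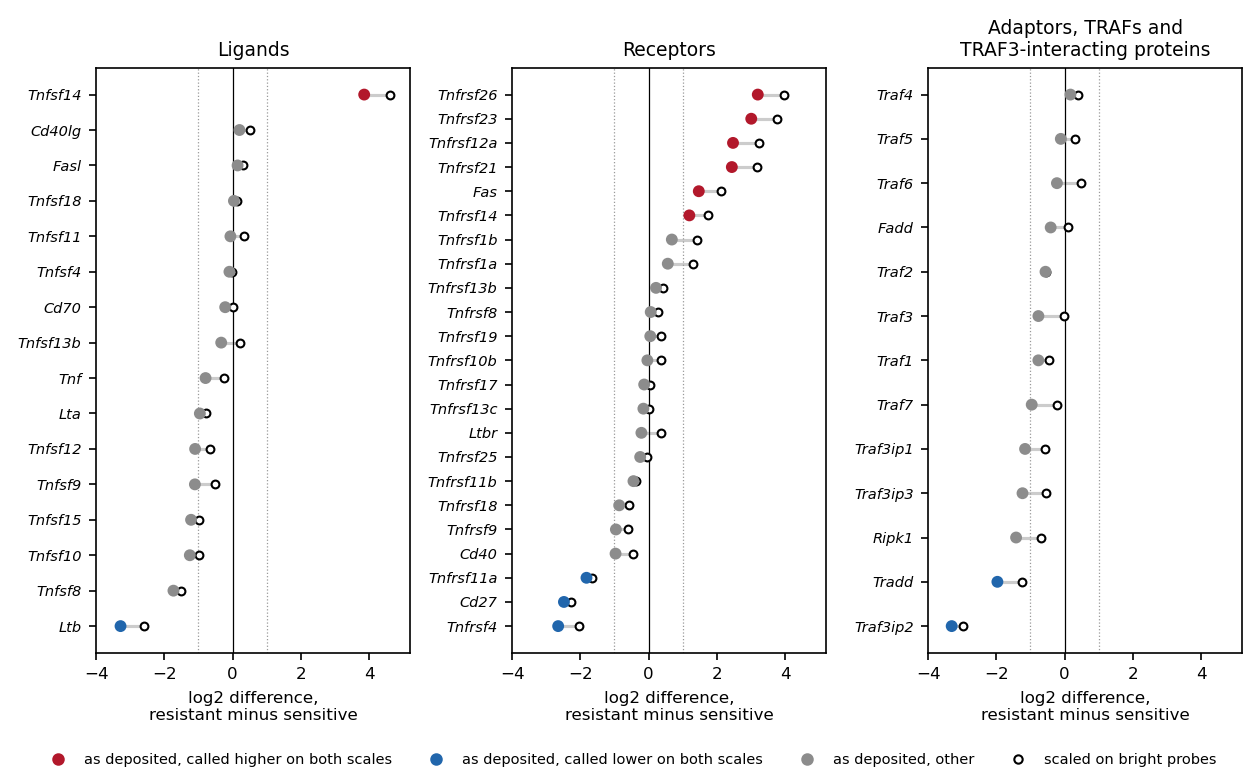
Log2 difference, resistant minus sensitive, of all 52 family genes by role. Filled points are as deposited (red called higher and blue called lower on both scales, grey other) and open points are after scaling on bright probes, with dotted lines at -1 and 1. The receptor panel holds 6 red and 3 blue points, the ligand panel 1 of each, and the third panel 2 blue points.

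Of the adaptors and TRAFs, Tradd and the TRAF3-interacting gene Traf3ip2 fell and none rose. Tradd, the adaptor that binds the death domain of TNFR1, read 599 in resistant cells, against 2498 and 2485 in sensitive cells, a difference of -1.97 (SE 0.21, limma adjusted p = 1.33e-05) and -1.25 after scaling. Ripk1, the kinase that TRADD and Fas complexes recruit, read 588 in resistant cells, against 1664 and 1655 in sensitive cells. Its difference was -1.42 (SE 0.21, limma adjusted p = 0.000196) as deposited but -0.71 after scaling, where it was not called. On the probes used, the sensitive arrays differed by under 0.01 on the log2 scale in each of these genes. The other Ripk1 probe read 159 in resistant cells, against 419 and 288 in sensitive cells, a difference of -0.93. Fadd, the adaptor of Fas and TRAIL receptors, read 79.3 in resistant cells and 132 and 112 in sensitive cells, a difference of -0.41 as deposited and 0.11 after scaling.

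The 7 TRAF genes gave no call on either scale. Traf3, which holds the non-canonical NF-kB kinase NIK in check, read 1314 in resistant cells and 1963 and 2633 in sensitive cells, a difference of -0.77 as deposited and -0.03 after scaling. Traf7 read 1366 against 2654 and 2771 (-0.96, and -0.22 after scaling). Traf6, which also serves Toll-like and interleukin-1 receptors, read 560.0 against 603 and 729 (-0.23, and 0.49 after scaling). After scaling the 3 bright TRAF genes therefore differed by less than 0.5 in either direction.

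Traf1, itself a known NF-kB target, read 28 in resistant cells and 70.8 and 96.3 in sensitive cells (-0.77), and Traf5 43.6 against 42.2 and 60.7. Traf2, which joins the complexes of both TNF receptors, read 0 on the resistant array and 21.1 and 26.4 on the sensitive arrays. These probes are too dim to size a change.

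The 3 TRAF3-interacting genes were lower as deposited. Traf3ip2, which encodes Act1, the adaptor of the interleukin-17 receptor, fell most: it read 31.1 in resistant cells, against 645 and 881 in sensitive cells, a difference of -3.31 (SE 0.28, limma adjusted p = 2.51e-06) and -2.97 after scaling. Traf3ip3 read 376 against 906 and 1002 (-1.23, and -0.54 after scaling). Traf3ip1, a gene of primary cilium transport, read 140.0 against 406 and 344 (-1.16, and -0.56 after scaling). Traf3ip3 and Traf3ip1 were called as deposited only.

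Of 21 ligand and receptor pairs with both partners among the 52 genes, 9 had a partner called on both scales, and in 1, Tnfsf14 with Tnfrsf14, both rose. As 13 of the 52 genes were called on both scales and either partner suffices, these counts are no result about pairing. For Tnfsf12 and Tnfrsf12a the ligand differed by -1.10 and the receptor rose by 2.47, and for Tnfsf10 and Tnfrsf23 by -1.25 and 3.01. For Fasl and Fas the ligand stayed under 11 units while the receptor rose. In no pair did both partners reach 500 units on any array. The pairs share genes, such as Ltbr with Ltb and with Tnfsf14, and are a description without a test.

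**Figure D3:**
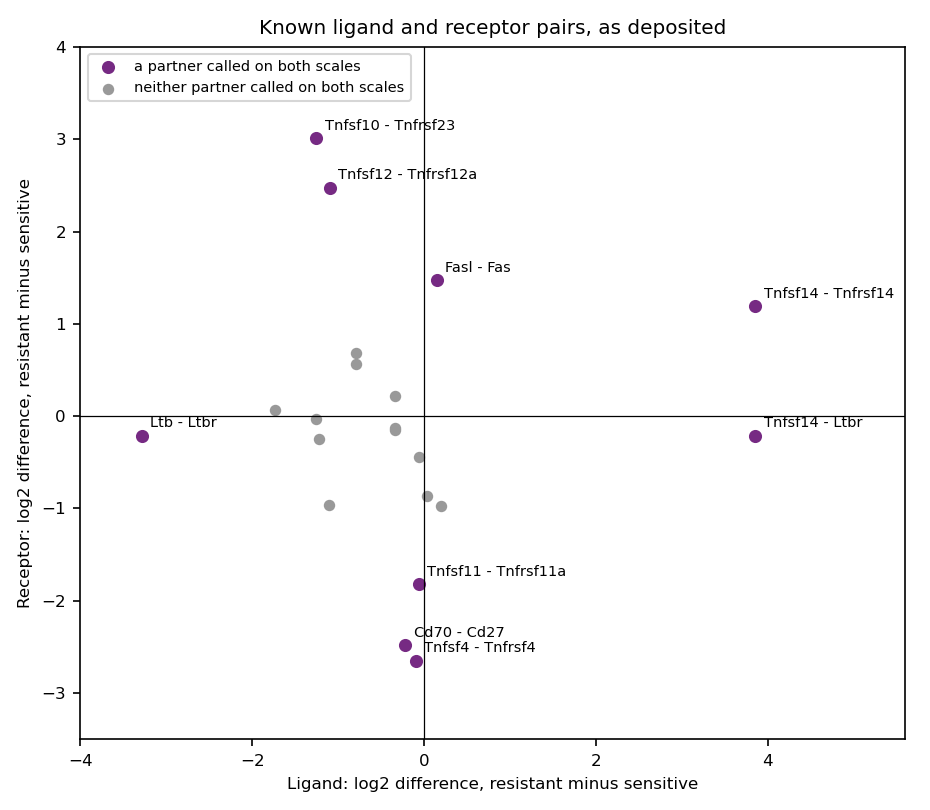
Log2 difference, resistant minus sensitive as deposited, of the ligand (horizontal axis) and the receptor (vertical axis) in 21 known pairs. Purple points are the 9 pairs with a partner called on both scales, and grey points the rest. Tnfsf14 with Tnfrsf14 lies at upper right, and Tnfsf10 with Tnfrsf23 and Tnfsf12 with Tnfrsf12a at upper left.

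In the GRCm38.p6 annotation 20 members fall into 8 groups of near neighbours, and in 1 of the 8 all measured members were called on both scales, the chromosome 7 pair Tnfrsf26 and Tnfrsf23, both higher. The chromosome 4 pair Tnfsf15 (-1.22) and Tnfsf8 (-1.73) was called lower as deposited only. On chromosome 17, Ltb fell by 3.28 on the log2 scale while the adjoining Tnf (-0.79) and Lta (-0.96) were not called. Also on chromosome 17, Tnfsf14 rose by 3.86 beside Cd70 (-0.22) and Tnfsf9 (-1.10), neither called. On chromosome 6, Cd27 fell by 2.48 while Ltbr (-0.21) and Tnfrsf1a (0.56) were not called.

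Below the receptors, the genes of the signalling machinery fell in number and none rose. Of 27 measured genes among 30 listed, 11 fell, or 40.7%, where 8.43% of all genes did. Lower calls numbered 16 on the deposited scale, where 18.5% of all genes were called lower, and 11 after scaling, where 8.53% were. The list's median difference was -1.30, or -0.80 after scaling, where all genes had -0.33 and -0.06. Of the 27 genes, 21 reached 500 units on any array and none stayed below 50 on all arrays. The background of all genes was not matched to the list by brightness, and the part of brightness in these shares was not tested. The necroptosis genes stood at the low end: Ripk3, the kinase that phosphorylates MLKL, read 160 in resistant cells, against 5546 and 5491 in sensitive cells, a difference of -4.73 (SE 0.20, limma adjusted p = 1.52e-08). Mlkl, the pore-forming executor, read 17.1 against 871 and 776, a difference of -3.70 (SE 0.27, limma adjusted p = 6.50e-07). On the scaled values they were -4.11 and -3.46. Both arrays of the parent were close to each other in these genes, within 0.16 on the log2 scale. The size of the fall in Mlkl, dim on the resistant array, depended on the offset: -4.66 with 16 and -2.98 with 100.

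Relb and Nfkb2, the subunits of non-canonical NF-kB, fell by 2.99 and 2.00 on the log2 scale, and Map3k14, which encodes NIK, the kinase upstream of them, fell by 2.70 (121 in resistant cells, against 1009 and 1125 in sensitive cells). Map3k7, the gene of the kinase TAK1, read 132 against 1309 and 1067 (-2.76), Rnf31, the catalytic subunit of the linear ubiquitin ligase, 205 against 1011 and 1183 (-2.16), and Tnip1, a partner of the deubiquitinase A20, 719 against 2492 and 3792 (-2.02). The fall of Tnip1 was no longer called after quantile normalization (-1.44). Rela (-1.51), Nfkb1 (-1.08), Ikbkb (-1.27) and Birc3 (-1.39), of canonical NF-kB signalling and its ubiquitin ligases, were called lower as deposited only, and Chuk (0.08), Ikbkg (-0.79) and Birc2 (-0.43) were not called. Rel, another subunit of canonical NF-kB, fell (-1.53, and -1.24 after scaling), at 23.3 in resistant cells against 144 and 182 in sensitive cells. Rel and the 7 genes before it were named after their values were seen. Other parts of the machinery were not called: Sharpin, another subunit of that ligase, read 4833 against 4435 and 3878 (0.22), Tab1 3307 against 4550 and 4479 (-0.44), and Bid, which links death receptors to mitochondria, 1630 against 2831 and 2657 (-0.73, and 0.01 after scaling). Casp8, the caspase that FADD recruits, read 1031 against 1749 and 2842 (-1.08, and -0.34 after scaling). As deposited it was not called because its difference from the first sensitive array was -0.73. After scaling its limma adjusted p was 0.457.

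Of 24 genes known to be induced by TNF through NF-kB, 2 rose, or 8.33%, and 6 fell, or 25%, where 5.21% of all genes rose and 8.43% fell. Lower calls numbered 11 on the deposited scale, or 45.8%, where 18.5% of all genes were called lower. Their median was -0.96, or -0.58 after scaling, where all genes had -0.33 and -0.06. In this list 14 genes reached 500 units on any array and 3 stayed below 50 on all arrays, and the background was again not matched by brightness. Il6 read 3.11 in resistant cells, against 232 and 447 in sensitive cells (-2.82), on a resistant reading near 0. Tnfaip3, which encodes A20, the feedback inhibitor of TNF signalling, read 327 against 1485 and 1498 (-2.03), and Nfkbia (-3.61), Icam1 (-4.53), Ccl2 (-5.23) and Ptgs2 (-3.57) fell as well, with Icam1 and Ptgs2 near 0 on the resistant array. The calls of Ccl2 (-4.67) and Ptgs2 (-3.32) were lost after quantile normalization.

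Against these, Plau and Csf1 rose. Plau, the urokinase gene, read 3449 in resistant cells, against 63.4 and 133 in sensitive cells, a difference of 4.60 (SE 0.31, limma adjusted p = 3.69e-07). Csf1, the macrophage growth factor gene, read 672 against 150.3 and 181 (1.75). Of the bright genes without a call, Irf1 read 768 against 1252 and 1315 (-0.70), Gch1 1178 against 1949 and 2699 (-0.93), Junb 440.2 against 763 and 1092 (-0.98) and Ier3 600.4 against 198 and 415 (0.94). After scaling their differences were 0.02, -0.19, -0.27 and 1.66 in the same order. The monocyte genes described above, other than Cd14, were lower in the same cells, and their part in these results was not tested.

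**Figure D4:**
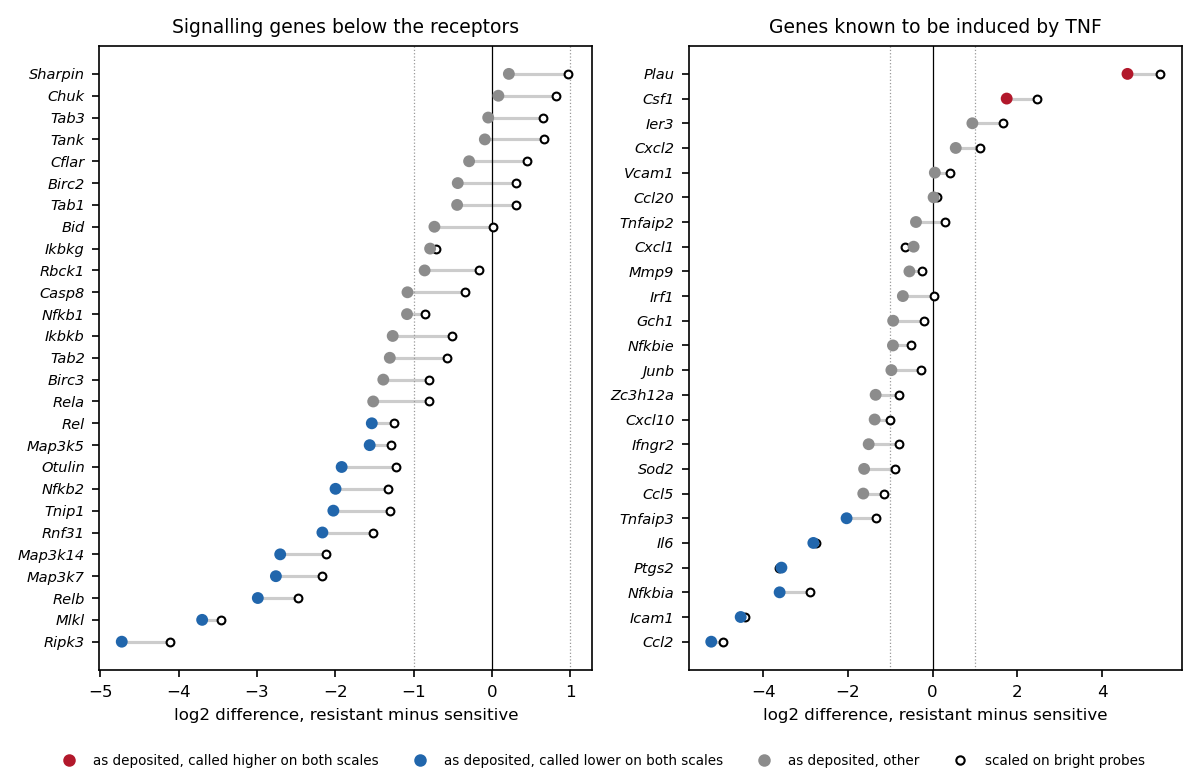
Log2 difference, resistant minus sensitive, of 27 signalling genes (left) and 24 genes known to be induced by TNF (right). Filled points are as deposited (red called higher and blue called lower on both scales, grey other) and open points are after scaling on bright probes. The left panel holds 11 blue and no red points, with Ripk3 and Mlkl lowest, and the right panel 6 blue and 2 red points, with Plau highest.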

How the data were processed

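Per the labels' protocols, amplified antisense RNA carried Cy5, the only dye on each array. The authors deposited 1 table of intensity values, 1 per probe and array (26423 probes). They are linear and reach below 0, so a background had been subtracted; the sources used here do not say how they were scanned and scaled. No spot flags or filter on low values were used. Median intensity was 24.9 on the resistant array and 58.4 and 72.5 on the sensitive arrays. The number of arrays limits the precision.

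Groups came from the sample titles. Probe symbols (20377 probes with 1 symbol) were updated through the GRCm38.p6 RefSeq table: 18213 matched a current symbol, 2126 an older one and 38 none. limma 3.58.1 in R 4.3.3 (lmFit, eBayes with a trend) was fitted to log2(intensity + 50) over all 17742 genes, with 1 residual degree of freedom and a prior of 11.0. The spread of the single resistant array was taken to equal that of the sensitive arrays. The step recovered known changes when tested on simulated data. Those changes were larger than the size asked, lay in genes above the median level, and had noise drawn from the fit's own variances. The simulation therefore does not test calls near the threshold, dim genes or the dimmer resistant array. Alternatives were 2 scalings on bright probes, quantile normalization, offsets of 16 (sums under 1 set to 1) and 100, a filter on the dimmest 25%, the mean of a gene's probes, no variance trend and leaving out each sensitive array. Python 3.11.15 did the rest.

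The members, lists and settings were chosen with earlier results of these data known. Named were all members, the called genes of each list (at most 8 by size) and 4 bright uncalled ones. The genes named from the cell type lists were picked after their values were seen.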

Additional observations from a re-analysis of the deposited data

How the results depend on the processing

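No paired analysis was possible because the single resistant array carries no replicate number that it shares with the sensitive arrays. With 1 resistant array there is no replicate check on that side, and probes near 0 give a bound on a fall rather than its size. Members called higher numbered 5 to 8 under every setting run, against 7 as deposited. Members called lower numbered 12 as deposited, 6 after scaling on probes bright on every array, 6 after scaling on probes bright on average (added after the data were seen), 6 after quantile normalization and 19 with an offset of 16. The signalling list had 16 calls as deposited and 8 after quantile normalization. The target list had 13 as deposited, 8 after scaling on probes bright on average and 7 after quantile normalization. Without the dimmest 25% of genes the members' median was -0.66, over fewer members, against -0.29 over all of them. That median was -0.053, -0.005 and -0.001 after the scaling on every array, the scaling on average and quantile normalization. Leaving out 1 sensitive array leaves 1 array against 1, so calls rest on size alone: 7 to 8 members were higher and 12 to 16 lower, 17 to 18 signalling and 15 to 16 target genes passed, and the members' median was -0.38 to -0.15.

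In these settings signs changed among genes not called as deposited. After scaling on probes bright on every array the differences became 0.20 for Ltbr, 0.26 for Tnfrsf10b, 0.23 for Tnfsf11, 0.072 for Tnfsf13b, 0.18 for Traf5, 0.30 for Traf6, 0.12 for Tab1 and 0.12 for Birc2. After scaling on probes bright on average they became 0.005 for Cd70, 0.11 for Fadd, 0.35 for Ltbr, 0.37 for Tnfrsf10b, 0.039 for Tnfrsf17, 0.35 for Tnfsf11, 0.22 for Tnfsf13b, 0.30 for Traf5, 0.49 for Traf6, 0.31 for Tab1, 0.31 for Birc2, 0.013 for Bid and 0.023 for Irf1. After quantile normalization they became 0.086 for Cd70, 0.10 for Fadd, 0.32 for Ltbr, 0.55 for Tnfrsf10b, 0.025 for Tnfrsf17, 0.52 for Tnfsf11, 0.19 for Tnfsf13b, 0.00042 for Tnfsf4, 0.49 for Traf5, 0.38 for Traf6 and 0.057 for Birc2. Leaving out 1 sensitive array also changed signs: without replicate 1 the differences became -0.053 for Tnfrsf19, -0.035 for Tnfrsf8, -0.016 for Tnfsf18, -0.054 for Chuk and 0.045 for Tnfsf11, and without replicate 2 0.10 for Tnfrsf10b and 0.02 for Traf5. The cause of these changes was not tested.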
